A study of Mus musculus with 12 samples.

Results

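The genes described are 7 genes of blood coagulation, the protein C pathway and plasminogen activation, namely F13a1, F10, F3, Procr, Thbd, Plau and Plaur, taken from 19938 genes that had a row of their own on a mouse gene expression array. They were chosen by their role and matched by symbol, with 1 row each. The rows were 10408693 for F13a1 on chromosome 13, 10570291 for F10 on chromosome 8, 10495675 for F3 on chromosome 3, 10477717 for Procr and 10488378 for Thbd on chromosome 2, 10413047 for Plau on chromosome 14 and 10550906 for Plaur on chromosome 7. They were followed in RM (colonic resident macrophages) and CD11b+ DC (dendritic cells) that lacked or carried Runx3, a Runt-domain transcription factor. Runx3Δ mice carried floxed Runx3 alleles together with CD11c-Cre, a recombinase driven by a promoter active in dendritic cells and in macrophages that express CD11c, and their WT littermates were labelled Runx3 +/+. The arrays held 4 samples of Runx3Δ RM, 3 of WT RM, 3 of Runx3Δ CD11b+ DC and 2 of WT CD11b+ DC. Each sample was a pool of sorted cecal cells from 3 to 4 mice of both sexes, aged 6 to 8 weeks. Both sort gates required CD45, CD11c, MHCII and CD11b without Ly6c, and separated RM from CD11b+ DC by the macrophage surface protein that Adgre1 encodes.

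Coagulation starts when tissue factor, the product of F3, meets its plasma partner factor VII and activates factor X, which then makes thrombin and thereby fibrin. Factor XIII, whose catalytic A subunit F13a1 encodes, is a transglutaminase that crosslinks fibrin and other matrix proteins. Thrombin bound to thrombomodulin (Thbd) activates protein C, and the endothelial protein C receptor (Procr) holds protein C for that step. Urokinase (Plau), bound to its receptor (Plaur), converts plasminogen to plasmin, which dissolves fibrin and degrades matrix. Macrophages are a known source of factor XIII A, tissue factor and urokinase outside the vessel.

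The sorted cells carried the markers of their labels. Of 11 macrophage markers, 10 were higher in RM than in CD11b+ DC in Runx3Δ and 10 in WT mice at an adjusted p under 0.05 (limma). Of 11 markers of conventional DC, 8 were lower in RM in Runx3Δ and 9 in WT mice, with 1 higher in each. Adgre1 itself was higher in RM by 2.31 in Runx3Δ and 2.13 in WT mice on the log2 scale, Cx3cr1 by 2.38 and 2.74 and Mertk by 2.08 and 2.09. On the DC side, the differences of RM minus CD11b+ DC were -3.11 and -3.40 for Flt3, -1.25 and -1.65 for Zbtb46 and -1.92 and -1.33 for Dpp4. The row of Runx3 had log2 levels of 9.85 to 10.18 in Runx3Δ RM and 9.48 to 9.83 in WT RM, and of 9.97 to 10.14 in Runx3Δ and 9.99 to 10.11 in WT CD11b+ DC. It was thus not lower in Runx3Δ cells. The row combines probes along the gene, and which of them lie in the deleted part is not given in the sources used here, so it does not check the genotype labels, which were used as given. Runx3Δ RM replicate 1 had the lowest correlation with the other arrays of its cell type (median r 0.980, against up to 0.9892). In bulk RNA of sorted cells, fewer cells that express a gene and less RNA per cell cannot be told apart.

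The bases before the start sites of F13a1, F10 and Procr are shown because these members had the largest differences between Runx3Δ and WT samples. Each stretch holds the 250 bases before a RefSeq start in build GRCm38.p6, written in the direction of the gene, with a match to the AP-1 motif TGANTCA in capitals. F13a1 has a further start, whose window is not printed.
F13a1, chr13:37050245-37050494, minus strand: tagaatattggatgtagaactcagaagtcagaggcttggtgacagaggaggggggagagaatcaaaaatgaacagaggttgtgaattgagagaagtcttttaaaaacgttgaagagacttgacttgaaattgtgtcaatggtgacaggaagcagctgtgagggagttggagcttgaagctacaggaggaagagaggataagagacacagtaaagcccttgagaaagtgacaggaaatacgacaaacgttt
F10, chr8:13037058-13037307, plus strand: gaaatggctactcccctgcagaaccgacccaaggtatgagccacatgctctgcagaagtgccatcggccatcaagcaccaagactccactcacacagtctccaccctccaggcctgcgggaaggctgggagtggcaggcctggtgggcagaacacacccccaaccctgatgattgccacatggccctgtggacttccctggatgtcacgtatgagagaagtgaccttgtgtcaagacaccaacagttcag
Procr, chr2:155750967-155751216, plus strand: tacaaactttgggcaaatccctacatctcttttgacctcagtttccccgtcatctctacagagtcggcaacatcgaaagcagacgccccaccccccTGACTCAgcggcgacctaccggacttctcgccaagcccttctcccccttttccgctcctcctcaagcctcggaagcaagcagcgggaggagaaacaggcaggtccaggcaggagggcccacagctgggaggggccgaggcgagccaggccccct
The core RUNX motif TGTGGT, read on both strands as TGTGGT or ACCACA, was in 14% of 32851 such windows and in none of the 6 windows of the 5 members that had any (F13a1 with 2 starts, F10, F3, Procr and Plaur). The AP-1 motif, which reads alike on both strands and was searched after the values were known, was in 6.75% of the windows and in those of 3 members. It lay 154 bases before the start used for Procr, 146 and 135 bases before that of F3 and 69 bases before the start used for Plaur. The windows of Procr and Plaur end at 155751216 and 24462482, past the annotated gene starts of 155751125 and 24460937. These matches describe the letters of the windows alone.

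F13a1 was lower in Runx3Δ than in WT CD11b+ DC by a margin that met the study's own thresholds, set at 1.5-fold and an unadjusted p of 0.05, but not an adjusted p under 0.05. All levels here are deposited log2 intensities, and all p-values are from limma over 35556 rows, with Benjamini-Hochberg adjustment over all of them. F13a1 stood at 5.65, 6.61 and 6.93 in the Runx3Δ CD11b+ DC samples, against 9.17 and 8.38 in the WT CD11b+ DC samples. The groups did not overlap, and the highest Runx3Δ sample lay more than 1 log2 unit below the lowest WT sample. The difference was -2.38 ± 0.56 (SE), 5.21-fold lower, with an unadjusted p of 0.0014 and an adjusted p of 0.367. Over 24 other ways of fitting the data it ran between -2.78 and -1.90, and the study's thresholds were met each time. In RM, F13a1 was at 7.95, 8.72, 8.86 and 8.86 in Runx3Δ and at 8.27, 10.28 and 8.61 in WT samples. The RM groups overlapped, with 1 WT sample far above the other two. Their difference of -0.45 ± 0.47 (SE, adjusted p = 0.852) became 0.16 without WT RM replicate 2.

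F10, the gene of factor X, was higher in Runx3Δ than in WT RM, while the genotypes overlapped in CD11b+ DC. Its levels were 9.61, 10.49, 10.18 and 10.51 in Runx3Δ RM, against 9.32, 8.87 and 8.47 in WT RM. All Runx3Δ RM samples lay above all WT RM samples. The difference of 1.31 ± 0.33 (SE, 2.48-fold) met the study's thresholds and not the adjusted one (adjusted p = 0.283). In CD11b+ DC, F10 was at 8.82, 9.37 and 10.23 in Runx3Δ and 9.77 and 9.56 in WT samples, so that the WT values fell inside the Runx3Δ range. The difference there was -0.20 ± 0.39 (SE, adjusted p = 0.97).

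F3, the gene of tissue factor, the receptor that starts clotting, did not differ detectably between genotypes. It measured 5.65, 6.10, 6.33 and 6.38 in Runx3Δ RM and 6.17, 6.25 and 6.57 in WT RM. In CD11b+ DC it measured 6.00, 6.14 and 6.00 in Runx3Δ and 5.89 and 6.13 in WT samples. These levels, 5.65 to 6.57 over all arrays, were not far above the array medians of 5.33 to 5.52. The groups overlapped in both cell types. The differences were -0.22 ± 0.17 (SE, 95% interval -0.59 to 0.16) in RM and 0.04 ± 0.20 (SE, -0.41 to 0.48) in CD11b+ DC.

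Procr, the protein C receptor, was the member with higher values in Runx3Δ cells of both types. It was at 10.28, 11.28, 10.72 and 11.15 in Runx3Δ RM, against 9.68, 8.46 and 9.97 in WT RM. It was at 10.38, 10.20 and 10.90 in Runx3Δ CD11b+ DC, against 8.85 and 9.67 in WT CD11b+ DC. In each cell type all Runx3Δ samples lay above all WT samples. Groups did not overlap, in either direction, for 7.55% of all rows in RM and 25.7% in CD11b+ DC. The difference was 1.49 ± 0.37 (SE, 2.80-fold, adjusted p = 0.283) in RM and 1.23 ± 0.44 (SE, 2.34-fold, adjusted p = 0.628) in CD11b+ DC, and each met the study's thresholds. The CD11b+ DC difference no longer met them in limma with litter as a block, where it was 0.96 (unadjusted p = 0.0875). It also missed the p threshold without WT CD11b+ DC replicate 1, at 0.82, and without Runx3Δ CD11b+ DC replicate 3, at 1.03.

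Thbd, which encodes the thrombin receptor of the same pathway, overlapped between genotypes in both cell types. Its levels were 6.78, 7.27, 7.12 and 7.25 in Runx3Δ RM and 7.07, 7.22 and 7.37 in WT RM. In CD11b+ DC they were 6.86, 7.71 and 7.07 in Runx3Δ and 7.68 and 7.47 in WT samples. The differences were -0.11 ± 0.19 (SE, 95% interval -0.53 to 0.31) in RM and -0.36 ± 0.23 (SE, -0.87 to 0.14) in CD11b+ DC. Without Runx3Δ CD11b+ DC replicate 2, the highest of its group, the CD11b+ DC difference was -0.61 and met the study's thresholds.

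Plau, the urokinase gene, was lower in Runx3Δ than in WT RM at the study's thresholds. It was at 9.63, 9.51, 9.40 and 10.14 in Runx3Δ RM, against 10.05, 11.03 and 10.74 in WT RM. The highest Runx3Δ sample lay just above the lowest WT sample, so the groups overlapped by 1 sample on each side. The difference was -0.94 ± 0.26 (SE, 1.91-fold lower, adjusted p = 0.351). In CD11b+ DC, Plau was at 7.62, 7.32 and 8.10 in Runx3Δ and 8.03 and 7.89 in WT samples, a difference of -0.28 ± 0.31 (SE, adjusted p = 0.923).

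Plaur, the urokinase receptor gene, had the smallest spread within groups of the 7 members. Its levels were 11.09, 11.31, 11.25 and 11.36 in Runx3Δ RM, against 11.38, 11.63 and 11.56 in WT RM. All 4 Runx3Δ RM samples lay below all 3 WT RM samples, the nearest by a narrow gap. In CD11b+ DC they were 10.20, 10.70 and 10.78 in Runx3Δ and 11.09 and 10.67 in WT samples, which overlapped. The differences were -0.27 ± 0.15 (SE, adjusted p = 0.706) in RM and -0.32 ± 0.18 (SE, adjusted p = 0.791) in CD11b+ DC, below the study's fold threshold in both.

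**Figure D1:**
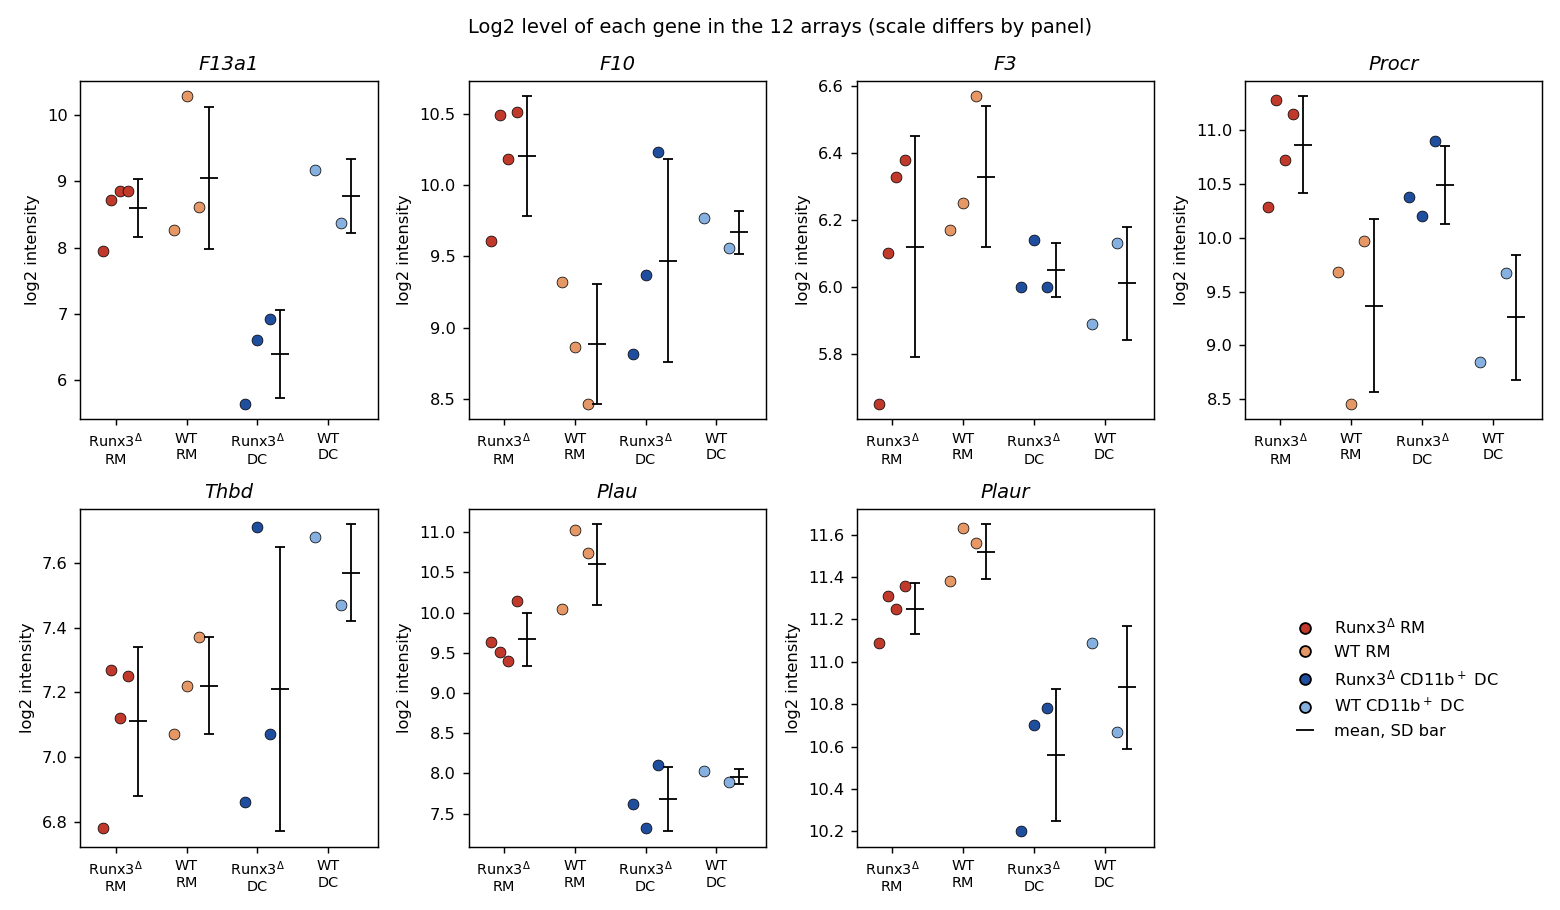
Log2 intensity of the 7 genes (y axis, scale differing by panel) in each array of Runx3Δ RM, WT RM, Runx3Δ CD11b+ DC and WT CD11b+ DC (x axis); points are arrays, and the line with its bar is the group mean ± SD. F13a1 in Runx3Δ CD11b+ DC, at 5.65 to 6.93, stands below the other 3 groups, and Procr stands higher in Runx3Δ than in WT samples of both cell types.

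Counted together, none of the 7 members passed the adjusted threshold for genotype in either cell type, where 5 of 35556 rows (0.0141%) passed in RM and 0 (0%) in CD11b+ DC. At the study's thresholds 3 of 7 members were called in RM (F10 and Procr higher, Plau lower), where 1.46% of all rows were called (0.728% higher, 0.731% lower), and 2 of 7 in CD11b+ DC (Procr higher, F13a1 lower), where 2.13% were (0.633% higher, 1.5% lower). Groups did not overlap for 3 members in RM (F10, Procr, Plaur), against 7.55% of all rows, and for 2 in CD11b+ DC (F13a1, Procr), against 25.7%. Of the 7 differences, 5 were below 0 in RM and 5 in CD11b+ DC. Their median was -0.22 in RM and -0.28 in CD11b+ DC, beside 0.03 and 0.01 over all rows.

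**Figure D2:**
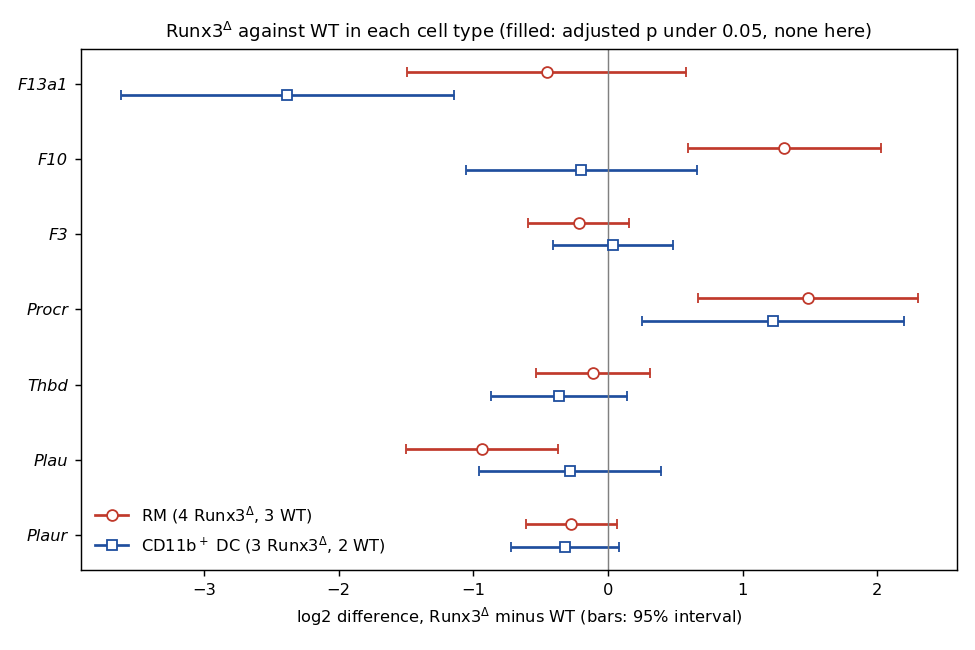
Log2 difference of Runx3Δ minus WT (x axis) for the 7 genes (y axis) in RM (circles) and CD11b+ DC (squares), with 95% intervals from limma. The interval leaves out 0 for F10, Procr and Plau in RM and for F13a1 and Procr in CD11b+ DC, and no adjusted p was under 0.05.

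Whether the genotype difference itself differed between the cell types was tested as an interaction. It was 1.93 ± 0.73 (SE, RM minus CD11b+ DC, unadjusted p = 0.0233) for F13a1 and 1.51 ± 0.51 (SE, unadjusted p = 0.0128) for F10, and both had an adjusted p of 0.9996. For Procr the interaction was 0.26 with a 95% interval of -1.01 to 1.53. None of the 7 members and none of all rows (0%) passed after adjustment. Averaged over both cell types, a contrast added after the values had been seen, Procr differed by 1.36 ± 0.29 (SE, adjusted p = 0.125), F13a1 by -1.42 ± 0.37 (SE, adjusted p = 0.195) and Plau by -0.61 ± 0.20 (SE, adjusted p = 0.305). These 3 members met the study's thresholds (Plau missed the fold in 7 alternatives), as 1.1% of all rows did, and 0 of 7 passed after adjustment, against 0.0112%. The averaged difference of Procr passed after adjustment where each gene was represented once (adjusted p = 0.0332) or by the mean of its rows (0.0352), or where only rows with 1 symbol were tested (0.0333).

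Between the cell types, the urokinase pair and, in Runx3Δ cells, F13a1 were higher in RM. Plau rose in RM by 1.99 ± 0.26 (SE, 3.97-fold, adjusted p = 0.000672, limma) in Runx3Δ and by 2.64 ± 0.31 (SE, 6.25-fold, adjusted p = 0.000444) in WT samples. Every RM sample, at 9.40 and above, exceeded every CD11b+ DC sample, at 8.10 and below, and all 24 alternatives kept both calls. Plaur rose in Runx3Δ RM by 0.70 ± 0.15 (SE, 1.62-fold, adjusted p = 0.0167). In WT samples its difference was nearly as large, 0.64 ± 0.18 (SE, 1.56-fold), with an adjusted p of 0.0676, and it passed with litter as a block (0.75, adjusted p = 0.0172). Without WT CD11b+ DC replicate 2 it was 0.44 (adjusted p = 0.448) and no longer met the study's thresholds. F13a1 rose in Runx3Δ RM by 2.20 ± 0.47 (SE, 4.60-fold, adjusted p = 0.0147), while its difference in WT samples was 0.27 ± 0.56 (SE, adjusted p = 0.9). Without Runx3Δ CD11b+ DC replicate 1, which had the lowest value of both genes, the differences were 1.83 (adjusted p = 0.0672) for F13a1 and 0.52 (adjusted p = 0.0575) for Plaur.

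The remaining members did not pass between the cell types. F10 differed by 0.73 ± 0.33 (SE, adjusted p = 0.258) in Runx3Δ and by -0.78 ± 0.39 (SE, adjusted p = 0.352) in WT samples. F3 differed by 0.07 in Runx3Δ and 0.32 in WT samples, Procr by 0.37 in Runx3Δ and 0.11 in WT, and Thbd by -0.10 in Runx3Δ and -0.36 in WT. In all, 3 of 7 members passed in Runx3Δ samples, where 7.85% of all rows did (3.73% higher and 4.12% lower in RM), and 1 of 7 passed in WT samples, where 6.07% did (3.05% higher, 3.02% lower). The study's thresholds were met by 4 of 7 in Runx3Δ samples (F13a1, F10, Plau, Plaur), against 7.56% of all rows, and by 2 of 7 in WT samples (Plau, Plaur), against 8.52%. F10 in Runx3Δ samples was close to the p threshold (unadjusted p = 0.0473, limma) and missed it in 13 of 24 alternatives, the methods' test among them. Without Runx3Δ CD11b+ DC replicate 1 its difference was 0.40. RM and CD11b+ DC did not overlap for 3 members in Runx3Δ samples, against 19.5% of all rows, and for 5 members in WT samples (F10, F3, Thbd, Plau, Plaur), against 32.4%.

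**Figure D3:**
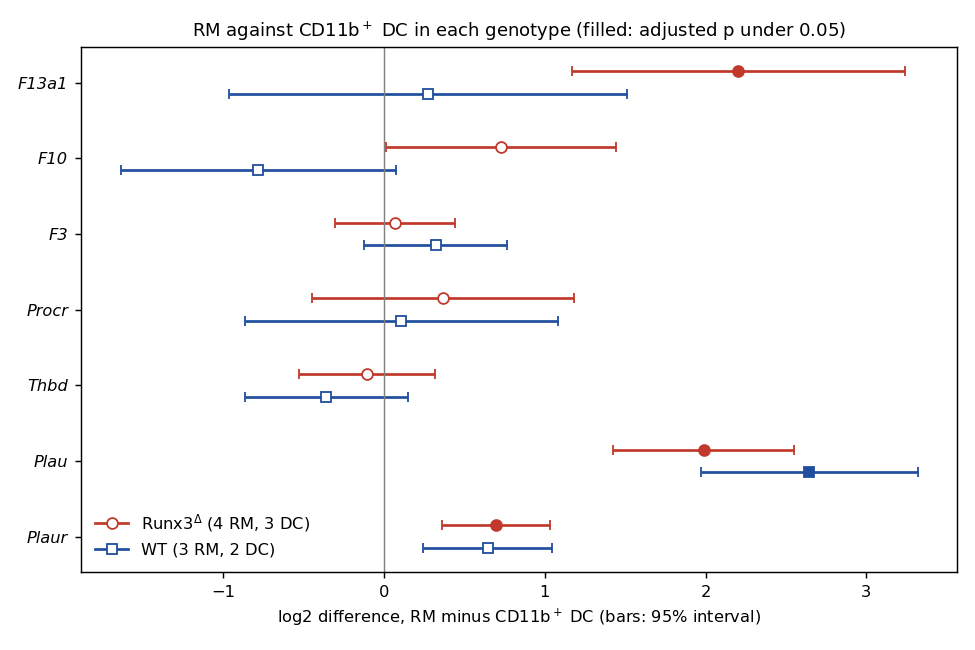
Log2 difference of RM minus CD11b+ DC (x axis) for the 7 genes (y axis) in Runx3Δ (circles) and WT samples (squares), with 95% intervals from limma and filled symbols where the adjusted p was under 0.05. Plau is filled in both genotypes, Plaur and F13a1 in Runx3Δ alone, and the Plaur estimates of 0.70 and 0.64 lie close together.

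The order of the group means differed from member to member. F13a1 lay lowest in Runx3Δ CD11b+ DC (6.40 ± 0.66, SD, n = 3), apart from WT CD11b+ DC (8.78 ± 0.56, SD, n = 2), Runx3Δ RM (8.60 ± 0.44, SD, n = 4) and WT RM (9.05 ± 1.07, SD, n = 3), which overlapped one another. Procr lay higher in both Runx3Δ groups (RM 10.86 ± 0.45, SD, n = 4, and CD11b+ DC 10.49 ± 0.36, SD, n = 3), which overlapped each other, than in WT RM (9.37 ± 0.80, SD, n = 3) and WT CD11b+ DC (9.26 ± 0.58, SD, n = 2). Plau separated by cell type, with Runx3Δ RM (9.67 ± 0.33, SD, n = 4) and WT RM (10.60 ± 0.50, SD, n = 3) above Runx3Δ CD11b+ DC (7.68 ± 0.40, SD, n = 3) and WT CD11b+ DC (7.96 ± 0.09, SD, n = 2). Plaur ranked the groups alike, with Runx3Δ RM below and apart from WT RM, and overlaps between the lower neighbours. F10 was highest in Runx3Δ RM and lowest in WT RM, and each neighbour in its order overlapped the next. F3 and Thbd moved within narrow ranges, and the one gap between neighbours was that of Thbd between WT CD11b+ DC and WT RM.

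Samples of a group varied more in F13a1 than in most rows. Its SD within groups was 0.714, at percentile 98.7 of all rows, and Procr (95.8) and F10 (93.7) were also high, while Plaur (64.3) was nearer the middle. Sample labels gave litter numbers from 1 to 4. In each of the 3 groups that held a litter 1 sample, that sample had the lowest F13a1 and the lowest Plaur of its group (7.95 and 11.09 in Runx3Δ RM, 8.27 and 11.38 in WT RM, 5.65 and 10.20 in Runx3Δ CD11b+ DC). Litter 1 was absent from WT CD11b+ DC and litter 2 from Runx3Δ CD11b+ DC. Litter 2 held the highest F13a1 of WT RM and of WT CD11b+ DC, but at 8.72 not that of Runx3Δ RM. Only litter 3 was in both CD11b+ DC groups, with F13a1 at 6.61 in the Runx3Δ and 8.38 in the WT sample.

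Over the 12 arrays, which share the cell type and genotype differences above, the closest pair of members was Plau and Plaur (Pearson r = 0.90), followed by F13a1 and Plaur (0.85) and F13a1 and Plau (0.70), while F10 and Procr had an r of 0.61. Among 8715 genes, those most like F13a1 were Lifr (0.968), Ago3 (0.965) and Pros1 (0.962), the last the gene of protein S, a cofactor of activated protein C. Those most like Procr were Slc7a11 (0.978), the cystine transporter gene, the chemokine gene Cxcl9 (0.968) and Hs3st3b1 (0.919). Plau was followed most closely by Tceal8 (0.99), Tnfrsf11a (0.988), the RANK gene, and Tanc2 (0.987), and Plaur by Snx9 (0.984), Map11 (0.977) and Dab2 (0.975). For F10 the nearest were Oxct1 (0.895), Sdc1 (0.892) and Cnn3 (0.85), for F3 Pdxk-ps (0.969), Xbp1 (0.921) and Ocel1 (0.92), and for Thbd Tm6sf1 (0.887), Mau2 (0.873) and Zkscan1 (0.871). These correlations describe 12 arrays in 4 groups and carry no test.

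Other genes of the same system were read from 5 lists, on which 46 of 52 genes had a row. The other 6 were not analysed here. For genotype none of the 46 passed after adjustment. At the study's thresholds 2 were higher in Runx3Δ RM and 0 lower, and in Runx3Δ CD11b+ DC 2 were higher and 5 lower. Over all rows these shares were 0.728% and 0.731% in RM, and 0.633% and 1.5% in CD11b+ DC, where lower calls also outnumbered higher ones. The median difference of the 46 was 0.05 in RM and 0.02 in CD11b+ DC, beside 0.03 and 0.01 over all rows.

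Among procoagulant genes, F7, which encodes the partner of tissue factor, was at 7.37, 8.75, 8.02 and 8.60 in Runx3Δ RM, against 6.63, 7.58 and 7.16 in WT RM, a difference of 1.06 ± 0.38 (SE, adjusted p = 0.526). The groups overlapped, as 1 Runx3Δ sample lay below the highest WT sample. F7 was picked after its values were seen. Prrg4, a membrane protein with the Gla domain of the vitamin K-dependent factors, was at 9.22, 8.68 and 8.25 in Runx3Δ CD11b+ DC, against 6.23 and 7.26 in WT CD11b+ DC, a gap of nearly 1 unit between the groups. Its difference was 1.97 ± 0.59 (SE, adjusted p = 0.514), and in Runx3Δ samples it fell in RM relative to CD11b+ DC, with a difference of -1.94 (adjusted p = 0.0337). Vkorc1, of the vitamin K cycle, rose in WT RM relative to WT CD11b+ DC by 0.52 (adjusted p = 0.0209).

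Among the inhibitors, Pros1 was lower in Runx3Δ than in WT CD11b+ DC, as F13a1 was. It was at 5.80, 6.44 and 6.48 in Runx3Δ CD11b+ DC, against 7.72 and 7.19 in WT CD11b+ DC, so that the groups were apart, with a difference of -1.22 ± 0.30 (SE, adjusted p = 0.39). In RM its genotype difference was -0.58 ± 0.25 (SE, unadjusted p = 0.0437, adjusted p = 0.613, limma). That fell short of the study's fold threshold, and the RM groups overlapped. Between cell types Pros1 rose in Runx3Δ RM by 0.98 (adjusted p = 0.0382). Tfpi, the inhibitor of tissue factor and factor Xa, rose in RM by 1.04 in Runx3Δ (adjusted p = 0.0178) and 1.51 in WT samples (adjusted p = 0.0073). Anxa5, which shields anionic phospholipid from clotting factors, rose in Runx3Δ RM by 0.72 (adjusted p = 0.007). Its difference between cell types in WT samples was 0.59 (adjusted p = 0.0584).

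Of 11 listed genes of plasminogen activation with a row, 3 met the study's thresholds in CD11b+ DC, each lower in Runx3Δ. Of all rows, 1.5% were called lower there. The groups of these 3 genes were apart, as they were in either direction for 25.7% of all rows. Serpinb2, which encodes an inhibitor of urokinase, was at 7.43, 7.99 and 8.15 in Runx3Δ CD11b+ DC, against 9.78 and 9.48 in WT CD11b+ DC, a difference of -1.77 ± 0.37 (SE, adjusted p = 0.282). Plat, the tissue plasminogen activator gene, was at 7.44, 7.45 and 7.68 in Runx3Δ, against 7.96 and 8.50 in WT samples (-0.71 ± 0.30, SE, adjusted p = 0.718). S100a10, a plasminogen receptor subunit picked after its values were seen, differed by -0.90 ± 0.31 (SE, adjusted p = 0.581). In RM, Lrp1, a clearance receptor for protease and inhibitor complexes, was at 9.58, 10.10, 9.74 and 10.28 in Runx3Δ and 9.02, 9.58 and 9.37 in WT samples (0.60 ± 0.20, SE, adjusted p = 0.492).

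Between the cell types these genes went both ways. Plat fell in RM, with differences of -1.30 in Runx3Δ (adjusted p = 0.00813) and -1.82 in WT samples (adjusted p = 0.00387), the opposite direction to Plau. Anxa2, which binds S100a10 and plasminogen, fell in RM, with differences of -0.88 in Runx3Δ (adjusted p = 0.0399) and -1.54 in WT samples (adjusted p = 0.0064). Thbs1, the thrombospondin gene, rose in RM by 1.22 in Runx3Δ (adjusted p = 0.000571) and 0.82 in WT samples (adjusted p = 0.0211). In Runx3Δ samples Lrp1 rose in RM by 1.39 (adjusted p = 0.00138) and Serpinb2 by 1.16 (adjusted p = 0.0451). The thrombin receptor family member F2rl2 fell in WT RM, with a difference of -0.98 (adjusted p = 0.0108), and in CD11b+ DC its genotype difference was -0.66 (adjusted p = 0.501). Across the 46 genes, 6 were higher and 3 lower in RM in Runx3Δ samples at an adjusted p under 0.05 (limma), beside 3.73% and 4.12% of all rows. In WT samples 3 were higher and 3 lower, beside 3.05% and 3.02% of all rows.

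Tgm2, tissue transglutaminase and thus a relative of the factor XIII A subunit, ran opposite to F13a1 in CD11b+ DC. It was at 11.89, 11.95 and 12.01 in Runx3Δ, against 11.24 and 11.33 in WT CD11b+ DC, with groups apart and a difference of 0.67 ± 0.16 (SE, adjusted p = 0.367). Of the 6 listed transglutaminases besides F13a1 it alone met the study's thresholds. All 6 differences were above 0 in CD11b+ DC, with a median of 0.25 beside 0.01 over all rows, but Tgm3, Tgm4, Tgm5 and Tgm7 had mean log2 levels under 5, below the median of every array.

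**Figure D4:**
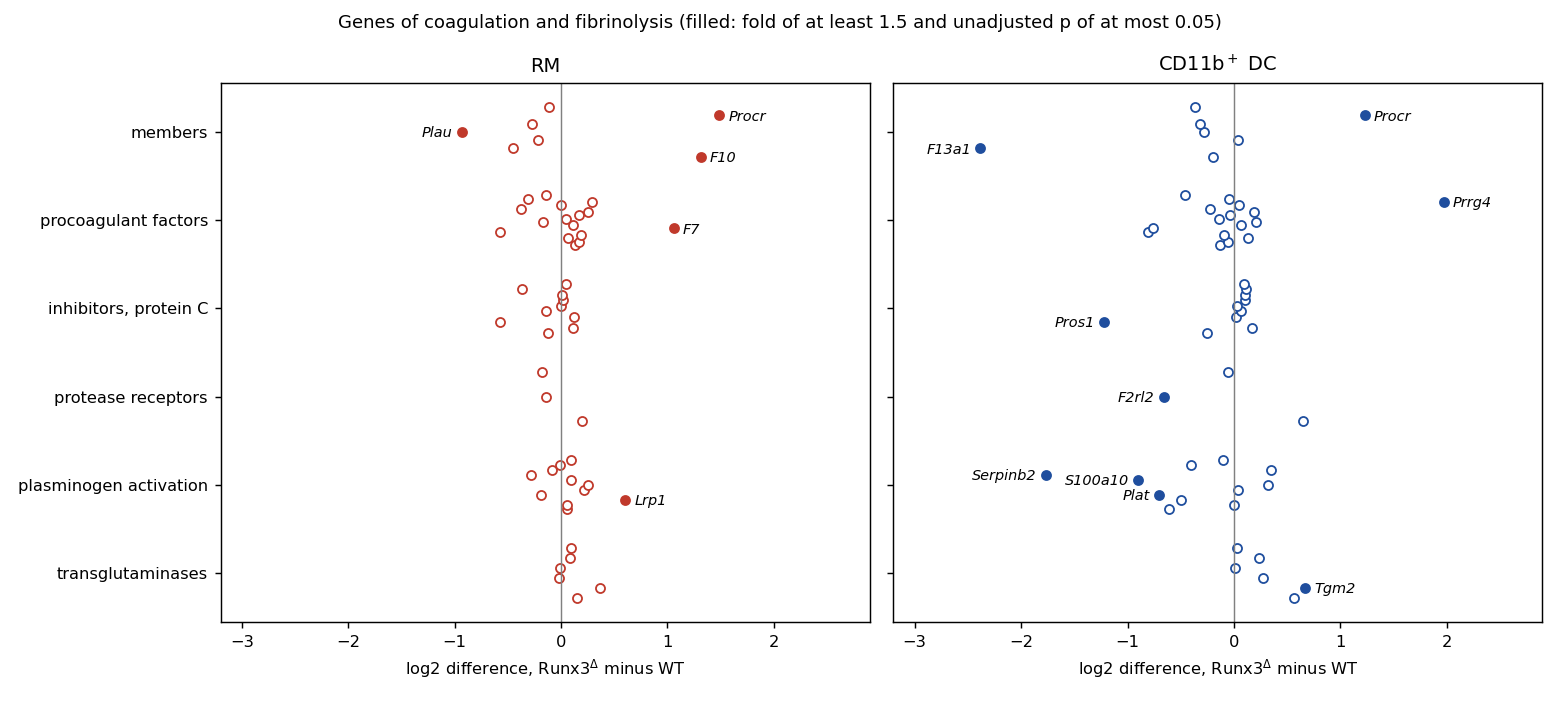
Log2 difference of Runx3Δ minus WT (x axis) in RM (left) and CD11b+ DC (right) for the 7 members and 46 other genes of the system, arranged by list (y axis); each circle is a gene, filled and named where it met the study's thresholds. In CD11b+ DC 5 genes of the other lists are filled on the lower side, and none in RM.

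Markers of other cells and of handling moved with some of these values. Of 12 stromal genes, 11 were lower in Runx3Δ in RM and 11 in CD11b+ DC. Of all 35556 rows, 15510 were lower in RM and 16998 in CD11b+ DC. At the study's thresholds 1 stromal gene was lower in Runx3Δ RM and 4 in Runx3Δ CD11b+ DC, beside 0.731% and 1.5% of all rows. The mean log2 level of the 12 was 6.09 to 6.40 in Runx3Δ against 6.50 to 7.21 in WT CD11b+ DC. In RM it was 6.38 to 6.86 in Runx3Δ against 6.58 to 7.28 in WT. Of 14 immediate-early and stress genes all 14 were lower in Runx3Δ CD11b+ DC (mean level 10.46 to 10.78, against 10.88 to 11.24 in WT) and 11 in Runx3Δ RM (10.59 to 10.93, against 10.43 to 11.51 in WT), none past the adjusted threshold. At the study's thresholds 2 of the 14 were lower and 0 higher in Runx3Δ cells of each type. Of 8 monocyte markers, 5 were higher and 3 lower in Runx3Δ cells of each type. Their mean level was 7.11 to 7.76 in Runx3Δ and 6.85 to 7.48 in WT RM, and 6.74 to 7.44 in Runx3Δ and 7.17 to 7.32 in WT CD11b+ DC. In RM, Hp (1.54), Plac8 (0.80) and Mgst1 (0.85) met the study's thresholds, each higher in Runx3Δ, beside F10, F7 and Procr. In CD11b+ DC, Fn1 (-2.02) and Vcan (-1.33) met them, both lower in Runx3Δ, beside F13a1, while Hp (1.16) and Plac8 (0.66) were higher without meeting them. Of the 11 macrophage markers, 10 were lower in Runx3Δ RM (mean level 10.7 to 11.21, against 10.78 to 11.32 in WT RM), where Cx3cr1 (-0.59) met the study's thresholds beside Plau. In Runx3Δ CD11b+ DC 6 of 11 were lower (8.74 to 9.22, against 9.08 to 9.26 in WT), with Mrc1 (-1.21) meeting those thresholds and Cd163 (-1.10) apart between the groups. Of the 11 markers of conventional DC, 9 were lower and 2 higher in Runx3Δ CD11b+ DC. There Irf4 (-0.66) and Cd24a (-0.79), both lower, and Dnase1l3 (0.86), higher, met the study's thresholds. In Runx3Δ RM 7 were lower and 4 higher, and Dpp4 (-0.62), Kmo (-0.78) and Ccr7 (0.63) met them. The part of the stromal, stress, monocyte and macrophage markers in the differences of F13a1, Pros1, Serpinb2, F10, F7, Procr and Plau was not tested. That of the conventional DC markers was not tested either. For Procr and Thbd, which vessels express, the 13 endothelial markers averaged 5.61 to 5.75 in Runx3Δ RM and 5.60 to 5.73 in WT RM, overlapping ranges, and 5.49 to 5.68 in Runx3Δ against 5.55 to 6.03 in WT CD11b+ DC. Of the 13, 9 were lower in Runx3Δ CD11b+ DC, where 1 higher and 2 lower met the study's thresholds. In Runx3Δ RM 9 were higher and 4 lower, and none met them. For F13a1, which platelets hold, 2 of 9 platelet markers (Pf4 and Ppbp) were higher in RM in both genotypes, by 4.27 and 2.12 in Runx3Δ samples, while the defining markers Itga2b, Gp9 and Gp5 differed by -0.21, 0.03 and -0.11. The mean level of the 9 was 6.04 to 6.27 in Runx3Δ RM, against 5.42 to 5.50 in Runx3Δ CD11b+ DC. The median of their 9 differences there was 0.03, with 5 above 0 and 4 below. For genotype, 1 of the 9 met the study's thresholds in RM, higher in Runx3Δ (0.93), and none in CD11b+ DC. The part of these markers in the values of Procr, Thbd and F13a1 was not tested.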

How the data were processed

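RNA of 12 sorted cell samples was hybridized to Affymetrix arrays. Values were taken as the authors deposited them, on a log2 scale, after RMA with a GC correction in Partek. The methods name an exon array and the platform record a gene-level array, whose annotation named the rows. Of 35556 rows, 21789 carried 1 gene symbol, 1621 several and 12146 none.

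The 4 groups were fitted in limma 3.58.1 (R 4.3.3) with 1 mean each, and p-values were adjusted over all rows (Benjamini-Hochberg, threshold 0.05). The lists, members, tests and named genes (list genes past the adjusted threshold, or past the study's with groups apart, 12 at most by smallest p) were chosen with earlier results of these data known. The 3 genes most like each member were ranked by Pearson r among genes with a mean log2 level of at least 6. Of the other marker lists, at the study's thresholds for genotype, peritoneal and serosal macrophages had 1 gene lower in Runx3Δ RM and 1 higher and 1 lower in Runx3Δ CD11b+ DC, epithelium 1 higher and neutrophils 2 higher in Runx3Δ CD11b+ DC, and mast cells none. The fit was tested on simulated data.

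Litter numbers in the labels pair samples and served as a block in an alternative (statmod 1.5.0). After removal of group means, 13 same-litter pairs had a median r of 0.0958 and 40 other pairs -0.0347. Further alternatives changed the fit, scaling, filter and rows, and left out each sample. Pools of mice are the replicates, and the number of arrays limits the precision. Chromatin and cytometry data of the study were not used here.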

Additional observations from a re-analysis of the deposited data

Results flagged for a closer look

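F13a1 in Runx3Δ RM was marked because its lowest sample, replicate 1 at a log2 level of 7.95, lay far below the others at 8.72, 8.86 and 8.86. The gap took 0.842 of the group's range, just over Dixon's critical value for 4 samples, and chance marks about 1 in 20 groups by this rule. Without that sample the difference of F13a1 between Runx3Δ and WT RM was -0.24. The same library had the lowest correlation with other RM arrays (median r 0.980).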

How the results depend on the processing

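The differences of the members were refitted under 12 other settings and with each of the 12 samples left out, 24 alternatives in all for each cell type and genotype comparison. In RM, 3 of 7 members met the study's thresholds under all of them, and in both genotype comparisons 0 of 7 passed after adjustment under all of them. Plau kept its calls between cell types throughout, F13a1 in Runx3Δ samples in 22 of 24 and Plaur in 23 of 24. F13a1 there had an adjusted p of 0.0570 in the methods' test.

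With litter as a block, the pairing left 1 of 7 members (F13a1) at the study's thresholds in CD11b+ DC, gave 2 of 7 past the adjusted threshold between WT cell types and 8 of all rows for genotype in RM, and turned the Plaur interaction to -0.092. The block changed no other call of a member. Plaur was the second member called between WT cell types, and 2 of 7 were also called with array weights, with 1 row per gene, with the mean of the rows per gene and with rows of 1 symbol only. Array weights also gave -0.030 for the Plaur interaction and 0.043 for F10 in CD11b+ DC. The averaged genotype contrast, added after the values were seen, had 1 of 7 members past the adjusted threshold, Procr, with 1 row per gene, the mean of the rows and rows of 1 symbol only.

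Of all rows, the 5 past the adjusted threshold for genotype in RM became 0 with only the 2 groups in the fit, 0 in the methods' test, 15 with array weights, 8 with median centring, 47 with 1 row per gene, 43 with the mean of the rows and 54 with rows of 1 symbol only, which test fewer rows. The 519 at the study's thresholds became 284, 284 and 310 under the last 3 of these. In CD11b+ DC the 0 rows became 6 with 1 row per gene and 6 with the mean of the rows, and the 758 at the study's thresholds became 380, 375 and 415 with 1 row per gene, the mean of the rows and rows of 1 symbol only. Between cell types, 2160 rows in WT became 883 with only the 2 groups in the fit, and 2687 at the study's thresholds in Runx3Δ became 1791 with the mean of the rows.

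With samples left out in turn, the differences that changed sign ran from -0.85 (without WT RM replicate 1) to 0.16 (without WT RM replicate 2) for F13a1 in RM. They ran from -0.57 to 0.13 for F10 and from -0.081 to 0.16 for F3 in CD11b+ DC. Between WT cell types they ran from -0.34 to 0.67 for F13a1 and -0.30 to 0.56 for Procr, and in Runx3Δ cells from -0.019 to 0.22 for F3 and -0.28 to 0.14 for Thbd. The interaction ran from -0.20 to 0.67 for Procr and -0.16 to 0.26 for Plaur. None of these differences had passed a threshold.

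Members at the study's thresholds ranged from 1 to 3 in CD11b+ DC, from 1 to 3 between WT cell types and from 2 to 4 between Runx3Δ cell types. Members past the adjusted threshold ranged from 1 to 2 between WT and from 1 to 3 between Runx3Δ cell types. The count of 1 in Runx3Δ cells came without Runx3Δ CD11b+ DC replicate 1. Over all rows the adjusted counts ranged from 4 to 63 in RM, 0 to 7 in CD11b+ DC, 1020 to 2611 between WT and 1562 to 3320 between Runx3Δ cell types. The counts at the study's thresholds ranged from 509 to 919 in RM and 618 to 1231 in CD11b+ DC. Without either WT CD11b+ DC sample that group holds 1 array, which is then assumed to vary like the other groups.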
